A study of Mus musculus with 16 samples.

Results

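Adipocytes store fat and release hormones, and their transcripts are not those that define a macrophage. Transcripts of 10 genes known from adipocytes were followed through the F4/80+ adipose tissue macrophages (ATMs) of this study: Adipoq, Lep, Retn, Cfd, Plin1, Cidec, Pnpla2, Lipe, Car3 and Pck1. They were chosen by symbol, and all 10 were found among the 37310 genes of the count table. In every library at least 6 counts fell on Cidec and at least 3 on Plin1, while Pnpla2 held at least 241 counts and Retn, Cfd and Pck1 never more than 8.

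The cells came from male mice on a C57BL/6 background, 7 to 10 weeks old when an experiment began, whose epididymal white adipose tissue (EpiWAT) was digested with collagenase before F4/80+ cells were isolated from the stromal vascular fraction. Wild-type (WT) mice and mice with floxed Irf5 alleles and Cre under the Lyz2 promoter (LysM-Cre, labelled IRF5-KO), which is active in myeloid cells and not in macrophages alone, were fed a high-fat diet (HFD) for 4 weeks (short term, ST-HFD) or 12 weeks (long term, LT-HFD). Each of the 4 groups held 4 libraries, so 16 in all, and every mouse was on HFD. Mice on LT-HFD were thus older when cells were taken, and age and diet duration cannot be told apart. Whether each library came from a separate mouse is not written in the labels, so the p-values measure the spread between these libraries.

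The total counts ranged from 3279332 to 4958131, lower on LT-HFD (at most 3792898) than on ST-HFD (at least 3860469). Irf5, the targeted gene, was at 203 to 252 CPM (counts scaled to library size, with the TMM factors of edgeR) in the WT libraries and at 250.4 to 274 CPM in the libraries labelled IRF5-KO on ST-HFD, and at 170.5 to 213 CPM and 206 to 253 CPM on LT-HFD. The knockout was thus not visible in the counts (log2 fold change of IRF5-KO over WT 0.13 at 4 weeks with an edgeR adjusted p of 0.9998, and 0.24 at 12 weeks with 0.853), and a count over the whole gene does not tell floxed exons apart. Genotypes are therefore given as labelled. Durations are given as labelled too, but a plot in the study, read by eye, shows lower Irf5 on ST-HFD than on LT-HFD, the other way round from the WT counts here. If the 2 durations were exchanged in the labels, every direction with duration below would be reversed. The 9 macrophage markers checked, Adgre1 (F4/80) and Cd68 among them, summed to 5685 to 8503 CPM per library and none was at 0 in any group.

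Fat cells keep triglyceride in a droplet coated by perilipin 1 (Plin1) and enlarged by Cidec, which helps droplets fuse. Stored fat is released by adipose triglyceride lipase (Pnpla2), which takes the first fatty acid, and hormone-sensitive lipase (Lipe), which takes the next, and both lipases are also used by macrophages, which carry lipid droplets in obese fat. Adiponectin (Adipoq), leptin (Lep), resistin (Retn) and adipsin (Cfd, complement factor D) are secreted by adipocytes, carbonic anhydrase 3 (Car3) is an abundant cytosolic enzyme of fat, and Pck1 makes the glycerol backbone for re-esterification.

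The stretches upstream of Lep and Adipoq are shown because these 2 are the best known hormones of fat cells. They are the 250 bases before the start site on the plus strand, from RefSeq on GRCm38.p6, at chr6:29059971-29060220 for Lep and chr16:23146286-23146535 for Adipoq. In Lep the capitals mark TTGCGCAA, a palindrome of the C/EBP kind, 55 bases before the start site, and TATAA with the overlapping TTATA on the other strand, 31 and 32 bases before it. In Adipoq they mark CCAAT 7 bases before the start site and its reverse ATTGG 34 and 27 bases before it.
Lep: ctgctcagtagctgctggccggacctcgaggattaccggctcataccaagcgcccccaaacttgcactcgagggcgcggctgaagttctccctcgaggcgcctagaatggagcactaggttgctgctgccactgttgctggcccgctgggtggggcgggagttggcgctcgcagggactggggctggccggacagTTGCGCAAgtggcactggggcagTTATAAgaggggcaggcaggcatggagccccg
Adipoq: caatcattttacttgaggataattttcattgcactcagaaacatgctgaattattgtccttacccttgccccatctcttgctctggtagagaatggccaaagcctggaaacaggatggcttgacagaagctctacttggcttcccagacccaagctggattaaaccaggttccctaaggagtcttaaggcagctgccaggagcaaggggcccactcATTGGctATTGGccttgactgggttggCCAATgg

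Of the 10 genes, 9 had such a window in RefSeq (not Car3). None of these held AGGTCA, the core of the sites bound by PPARG with its partner, or its repeat with 1 base between the copies, nor TTGCNNCAA or TATAAA, which occur on either strand in windows of 15.8%, 0.0407%, 1.98% and 14.3% of 27025 genes. TTGCGCAA (in 0.185% of genes), CCAAT (37.5%) and TATAA (25.8%) were added after the windows had been seen, and TATAA lies within TATAAA. Among the 9, Lep alone held TTGCGCAA and TATAA and Adipoq alone held CCAAT in this window. These are matches of letters and say nothing of binding.

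Levels between genes were compared as CPM per kilobase of merged exons, averaged over the 16 libraries. Pnpla2 was highest at 32.4 ± 7.09 (SD, n = 16), above every other gene in 16 of 16 libraries. Car3 followed at 4.01 ± 1.58, Lipe at 3.22 ± 0.873, Cidec at 2.96 ± 1.33 and Lep at 2.53 ± 1.28. Among these 4 the neighbours were not separated beyond their spread, as Car3 was above Lipe in 10 of 16 libraries, Lipe above Cidec in 10 and Cidec above Lep in 12. Adipoq came next at 1.55 ± 0.875 and Plin1 at 0.728 ± 0.458, with Adipoq above Plin1 in 12 of 16 libraries. Cfd (0.611 ± 0.555), Retn (0.321 ± 0.283) and Pck1 (0.258 ± 0.243) were lowest, and each stood above the next in only 9 of 16 libraries.

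**Figure D1:**
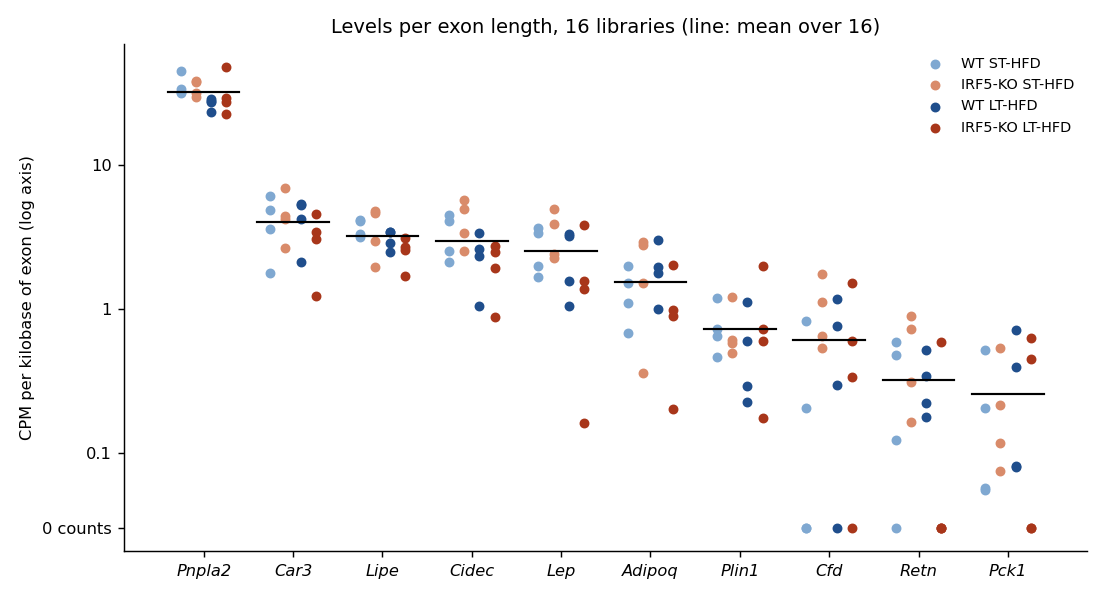
Level of each gene in each library as CPM per kilobase of exon on a log axis, with libraries at 0 counts drawn at the foot, colours for the 4 groups and a line at the mean over 16 libraries. Pnpla2 lies above the other 9 genes in 16 of 16 libraries, and Retn, Cfd and Pck1 include libraries at 0.

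Over all libraries there were 560 counts of Lep and 136 of Adipoq, and per kilobase Lep was 1.63 times higher and above Adipoq in 14 of 16 libraries, a mean difference of 0.980 CPM per kilobase with an SD of 0.998 over the libraries. Lep was also above Cfd per kilobase in 16 of 16 libraries, with 560 against 35 counts. Car3 exceeded Adipoq in 16 of 16 libraries, by 2.59 times in mean level per kilobase. Between the droplet proteins Cidec exceeded Plin1 in 16 of 16 libraries, by 4.06 times, and between the lipases Pnpla2 exceeded Lipe in 16 of 16, by 10.1 times.

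For a view of how low these levels are, 985 olfactory receptor genes were taken as genes that neither cell type is known for, a choice made after the values had been seen. Of them, 940 held 0 counts in all 16 libraries and the highest was at 0.279 CPM per kilobase. None exceeded the mean of any of the 9 genes from Pnpla2 down to Retn, and 1 exceeded that of Pck1. Without the lipases, the other 8 genes together held 37 to 256 counts per library, or 0.000976% to 0.00534% of all counts (95% Wilson intervals from 0.000708% to 0.00134% for the lowest and from 0.00473% to 0.00604% for the highest, covering counting error only). They made up 5.86% to 31.1% of the counts on the 10 genes, and the rest were Pnpla2 and Lipe.

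The adipokines varied among libraries of one group. Adipoq (chromosome 16, 23146536 to 23158028, plus strand, GRCm38) held 14, 9, 6 and 5 counts in WT replicates 1 to 4 on ST-HFD and 20, 15, 9 and 2 in the libraries labelled IRF5-KO. On LT-HFD it held 9, 12, 5 and 10 counts in WT and 1, 5, 10 and 4 in IRF5-KO. The groups overlapped at both durations, with means of 1.82 ± 0.767, 2.61 ± 1.66, 2.69 ± 1.16 and 1.42 ± 1.04 CPM (SD, n = 4) for WT and IRF5-KO on ST-HFD and WT and IRF5-KO on LT-HFD.

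Lep (chromosome 6, 29060220 to 29073877, plus strand) was at 12.3, 6.73, 5.57 and 11.3 CPM in WT and at 16.6, 13.1, 8.09 and 7.63 CPM in IRF5-KO on ST-HFD. On LT-HFD the values were 11.1, 10.8, 5.28 and 3.53 CPM in WT and 5.25, 0.542, 12.9 and 4.63 CPM in IRF5-KO. The lowest of these, IRF5-KO replicate 2 on LT-HFD, rests on 2 counts, and replicate 3 of the same group on 46, so the range within that group was wider than the range between the group means (5.84 to 11.4 CPM).

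Retn (chromosome 8) and Cfd (chromosome 10, 79890853 to 79892655, plus strand) were near the limit of detection. Retn held 33 counts over all libraries and was at 0 in 4, of which 3 were the IRF5-KO replicates 1 to 3 on LT-HFD. Cfd held 35 counts and was at 0 in 4 libraries, replicates 1 and 2 of WT on ST-HFD and one library in each LT-HFD group. A count of 0 allows up to 3 counts. On ST-HFD Cfd was at 0, 0, 0.759 and 0.188 CPM in WT and at 0.602, 1.03, 1.62 and 0.492 CPM in IRF5-KO, higher in IRF5-KO in 4 of 4 same-numbered pairs while the groups overlapped, and it did not pass the filter on low counts. Fitted without that filter, its log2 fold change of IRF5-KO over WT was 1.93 (SE 1.01, edgeR unadjusted p = 0.0695, adjusted p = 0.887). The spread of both over the 16 libraries was close to that of counting alone, 1.25 and 1.33 times the counting SD, against 2.96 times for Lep and 4.31 times for Pnpla2.

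Of the droplet proteins, Cidec (chromosome 6, 113424634 to 113435760, minus strand) was at 7.61, 3.95, 8.35 and 4.71 CPM in WT and at 10.6, 9.26, 6.24 and 4.68 CPM in IRF5-KO on ST-HFD. On LT-HFD it was at 4.34, 6.29, 1.95 and 4.89 CPM in WT and at 3.59, 1.63, 5.06 and 4.63 CPM in IRF5-KO. The IRF5-KO groups met only at their edges, with 5.06 CPM in the highest LT-HFD library and 4.68 CPM in the lowest ST-HFD library.

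Plin1 (chromosome 7, 79720218 to 79732903, minus strand) was at 2.15, 3.02, 5.57 and 3.39 CPM in WT and at 5.61, 2.83, 2.31 and 2.71 CPM in IRF5-KO on ST-HFD. On LT-HFD it was at 1.36, 1.05, 2.78 and 5.17 CPM in WT and at 2.76, 0.813, 9.27 and 3.40 CPM in IRF5-KO. All 4 groups overlapped, and the highest library of all was IRF5-KO replicate 3 on LT-HFD.

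The lipase Pnpla2 (chromosome 7, 141455198 to 141460743, plus strand) was at 96.8, 102, 97.9 and 136 CPM in WT and at 117, 96.5, 90.8 and 115 CPM in IRF5-KO on ST-HFD. On LT-HFD it was at 87.9, 84.2, 83.4 and 71.2 CPM in WT and at 68.8, 146, 82.9 and 88.3 CPM in IRF5-KO. In WT every LT-HFD library was below every ST-HFD library, whereas IRF5-KO replicate 2 on LT-HFD was the highest of all 16.

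Lipe (chromosome 7, 25379527 to 25398710, minus strand) was at 18.7, 24.4, 24.0 and 19.6 CPM in WT and at 11.6, 27.3, 28.2 and 17.5 CPM in IRF5-KO on ST-HFD. On LT-HFD it was at 20.4, 20.3, 14.7 and 16.9 CPM in WT and at 9.95, 15.2, 16.01 and 18.2 CPM in IRF5-KO. The groups overlapped at both durations. An antisense gene, 4732471J01Rik, shares 918 exonic bases with Lipe, and as the strand setting of the counting is not given in the sources used here, reads of the pair may not be told apart.

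Among the enzymes, Car3 (chromosome 3, 14863512 to 14872523, plus strand) was at 14.05, 17.4, 10.4 and 5.09 CPM in WT and at 12.0, 20.1, 12.7 and 7.63 CPM in IRF5-KO on ST-HFD. On LT-HFD it was at 12.2, 15.4, 6.12 and 15.2 CPM in WT and at 8.85, 3.52, 13.2 and 9.88 CPM in IRF5-KO. Its 4 groups overlapped as well. Pck1 (chromosome 2, 173153048 to 173159273, plus strand) held 53 counts over all libraries, with 0, 8, 0 and 5 in IRF5-KO on LT-HFD and between 1 and 8 in each of the other libraries.

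**Figure D2:**
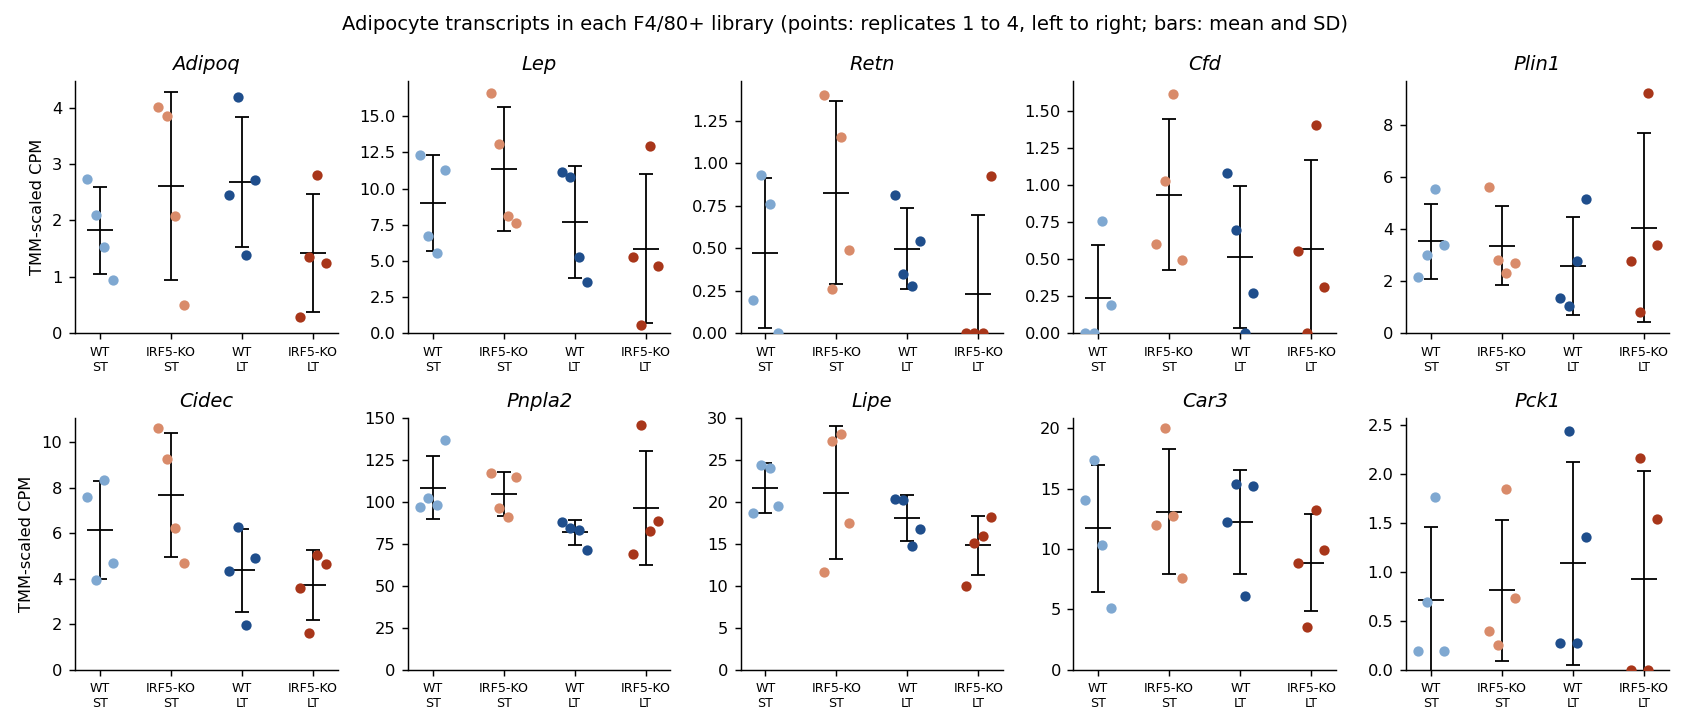
TMM-scaled CPM of each of the 10 genes in WT and IRF5-KO libraries on ST-HFD (ST) and LT-HFD (LT), with points for replicates 1 to 4 and bars for the mean and SD of 4 libraries. Groups overlap in nearly every panel, and Pnpla2 in WT is the case where the ST-HFD libraries (96.8 to 136 CPM) lie above the LT-HFD libraries (71.2 to 87.9 CPM).

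The first question of the design was whether genotype changed these transcripts at either duration, and no call was made for any of them. On ST-HFD, 6 of the 10 passed the filter on low counts (not Adipoq, Retn, Cfd or Pck1), and edgeR's quasi-likelihood test called 0 of the 6 at an adjusted p under 0.05, against 0.00913% of all 10958 genes tested. It found 0 at an unadjusted p under 0.05 (1.84% of all genes), and DESeq2, which fitted all 10, called 0 and found 0 at an unadjusted p under 0.05. The log2 fold changes of IRF5-KO over WT were 0.32 for Lep (SE 0.33), 0.32 for Cidec (SE 0.33), 0.16 for Car3 (SE 0.36), -0.04 for Plin1 (SE 0.40), -0.05 for Lipe (SE 0.24) and -0.06 for Pnpla2 (SE 0.14). Each was smaller than its standard error, so no difference in either direction was detectable at this depth and spread. With the replicate number as a block, the genes called among all tested went from 1 to 2, neither of them among the 10. Under that block edgeR found 0 of the 6 at an unadjusted p under 0.05, while over all genes the number rose from 202 to 451.

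On LT-HFD, 0 of the same 6 genes had an adjusted p under 0.05, against 0.0182% of 10987 genes tested, and again edgeR and DESeq2 found 0 at an unadjusted p under 0.05 (5.72% of all genes in edgeR). Plin1 had a log2 fold change of 0.61 (SE 0.66) and Pnpla2 of 0.24 (SE 0.21), while Car3 was at -0.47 (SE 0.38), Lep at -0.40 (SE 0.62), Lipe at -0.29 (SE 0.21) and Cidec at -0.23 (SE 0.43). Without IRF5-KO replicate 2 the value of Cidec was 0.02, that of Pnpla2 -0.04 and that of Lep -0.01. Without IRF5-KO replicate 3 the value of Plin1 was -0.19 and that of Lep -1.14. The median over the 6 was -0.26, beside 0.00 over all genes, and on ST-HFD it was 0.06 beside 0.00. Adipoq, fitted over all 16 libraries, had log2 fold changes of 0.52 (SE 0.56, edgeR unadjusted p = 0.366) on ST-HFD and -0.88 (SE 0.62, edgeR unadjusted p = 0.171) on LT-HFD.

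The next question was how these transcripts differed between 4 and 12 weeks of HFD. In WT, 0 of 7 tested genes (the 6 and Adipoq) had an adjusted p under 0.05, where 25.3% of all 11560 genes did. edgeR and DESeq2 each found 1 at an unadjusted p under 0.05 (35.9% of all genes in edgeR), Pnpla2, with a log2 fold change of -0.41 (SE 0.18, adjusted p = 0.119). Pnpla2 was also the gene whose WT groups did not overlap, as was the case for 26.1% of all genes (13.8% with LT-HFD lower). Leaving out IRF5-KO replicate 2 on LT-HFD, a library of the fit that is not in the contrast, gave it an adjusted p of 0.029 at the same log2 fold change. Adipoq was at 0.53 (SE 0.58), Car3 at 0.06 (SE 0.40), Lep at -0.25 (SE 0.52), Lipe at -0.26 (SE 0.24), Plin1 at -0.40 (SE 0.59) and Cidec at -0.50 (SE 0.39).

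In the libraries labelled IRF5-KO, Cidec fell from ST-HFD to LT-HFD, from 7.70 ± 2.72 to 3.73 ± 1.53 CPM (SD, n = 4), a log2 fold change of -1.05 (SE 0.39, adjusted p = 0.0484). It was the 1 call among the 7 tested, in a comparison where 32.8% of all genes were called and 17.2% were called lower, and it was also the 1 gene of the 7 with an unadjusted p under 0.05 (42.8% of all genes). Fitted by edgeR without the filter, 3 of the 10 were under 0.05 unadjusted, Cidec, Lep and Lipe, as were 5596 of 21580 genes, and Cidec remained the 1 call. The call was marginal: among fits that left out 1 of the 16 libraries the adjusted p ran from 0.0288 to 0.138, and it stayed under 0.05 only without WT ST-HFD replicate 2, IRF5-KO ST-HFD replicate 4, WT LT-HFD replicates 2 or 3, or IRF5-KO LT-HFD replicate 3. It was 0.0564 in a fit of the 8 IRF5-KO libraries alone and 0.0416 by DESeq2.

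Of the others, Lep had a log2 fold change of -0.97 (SE 0.53, adjusted p = 0.173), Adipoq of -0.88 (SE 0.60), Car3 of -0.56 (SE 0.41), Lipe of -0.51 (SE 0.25), Pnpla2 of -0.12 (SE 0.18) and Plin1 of 0.25 (SE 0.57). Single libraries decided some of these. Without IRF5-KO LT-HFD replicate 3, Lep was at -1.72 (adjusted p = 0.0279) and Plin1 at -0.56, and without IRF5-KO ST-HFD replicate 1, Lipe was at -0.71 (adjusted p = 0.0163). The median over the 7 genes was -0.56 in IRF5-KO and -0.26 in WT, beside 0.04 and 0.02 over all genes.

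Whether the change over time differed between genotypes was tested by the interaction, and 0 of the 7 genes were called, as were 0% of all 11560 genes in edgeR and none in DESeq2. None of the 7 had an unadjusted p under 0.05 by either tool, against 3.93% of all genes in edgeR. The largest value was that of Adipoq, -1.41 (SE 0.84, edgeR unadjusted p = 0.111, adjusted p = 0.969), whose log2 fold change with duration was positive in WT and negative in IRF5-KO, without a call in either. For Cidec the interaction was -0.55 (SE 0.56), so the change in IRF5-KO was not shown to differ from that in WT.

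**Figure D3:**
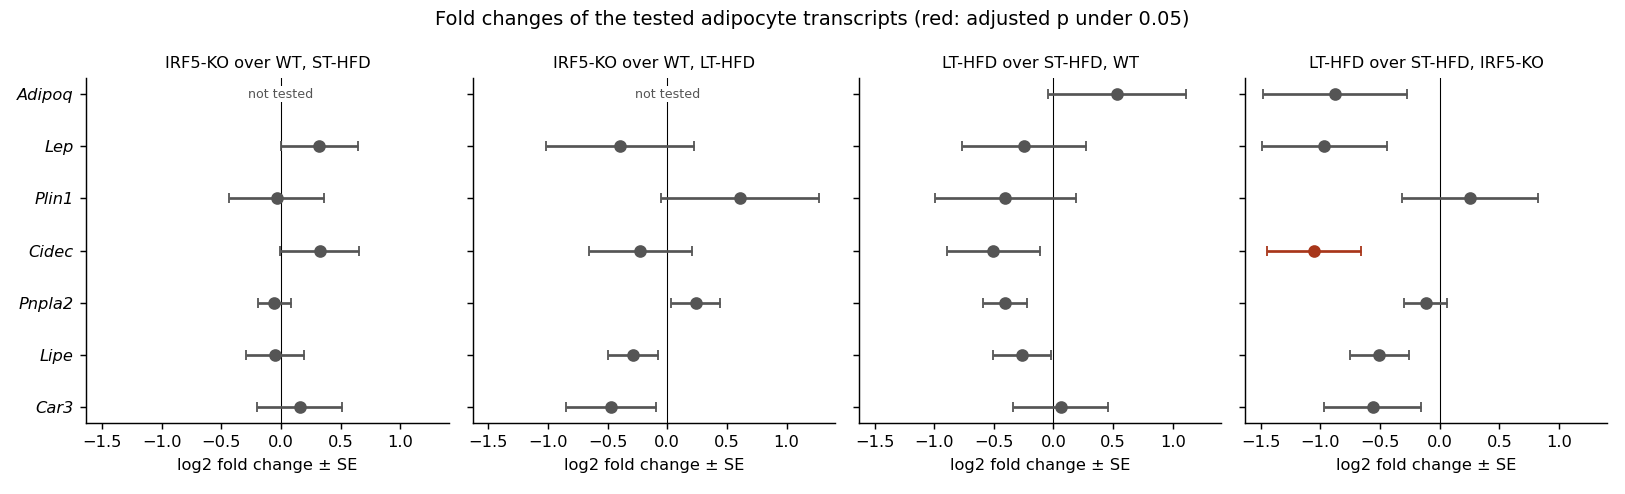
Log2 fold changes with standard errors for the 7 genes that passed the filter in at least 1 fit, IRF5-KO over WT in the 2 panels on the left and LT-HFD over ST-HFD in the 2 panels on the right, with Adipoq not tested on the left. Most error bars reach or come near 0, and Cidec in IRF5-KO (-1.05, red) is the 1 value with an adjusted p under 0.05.

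Fibroblast markers moved with duration in the same libraries. The 7 fibroblast and preadipocyte markers (Pdgfra, Dcn, Lum, Col1a1, Col3a1, Dpp4 and Pi16) summed to 565 to 1367 CPM per library on ST-HFD and 2453 to 7214 CPM on LT-HFD, without overlap. In WT 7 of 7 were called higher, where 12.1% of all genes were. In IRF5-KO 5 of 7 were called higher, where 15.6% of all genes were, and all 7 had positive log2 fold changes. The medians were 2.08 in WT and 1.75 in IRF5-KO on the log2 scale. The 8 adipocyte transcripts without the lipases summed to 24.9 to 51.3 CPM on ST-HFD and 10.0 to 44.7 CPM on LT-HFD, and the lipases to 116 to 156 and 78.8 to 161 CPM. The macrophage markers summed to 7295 to 8503 CPM on ST-HFD and 5685 to 7675 CPM on LT-HFD. Single macrophage markers went both ways in IRF5-KO, where 4 of 9 were called lower (17.2% of all genes) and 2 higher (15.6%). Adgre1 had a mean of 609 CPM on ST-HFD and 840 CPM on LT-HFD there. In WT 2 of the 9 were called lower and 0 higher, where 25.3% of all genes were called. The part of these markers in the results was not tested, and in bulk RNA fewer cells of a type and less RNA per cell cannot be told apart.

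Endothelial markers ran with the adipocyte transcripts within groups. The 5 endothelial markers summed to 73.6 CPM in IRF5-KO ST-HFD replicate 1 and 58.4 CPM in IRF5-KO LT-HFD replicate 3, and to 10.6 to 29.9 CPM in the others. The library with the highest endothelial sum also held the highest sum of the 8 adipocyte transcripts in 4 of 4 groups, and the library with the lowest held the lowest in 3 of 4. As a description over 16 libraries, r between the log2 sums was 0.53, and 0.68 after removing group means. Other lists came near these values on 1 measure or the other. Macrophage markers were at 0.52 (0.26 after removing group means) and mesothelial markers at 0.48 (0.49). Fibroblast markers were at -0.19 (0.53) and the further adipocyte genes below at 0.04 (0.47). That further list shared its lowest library with the 8 transcripts in 4 of 4 groups. Haemoglobin transcripts were at 0.35 (0.34), and lymphocyte, epididymal and shared lipid genes at most at 0.03 on either measure. Adipoq ran with Cdh5, endothelial cadherin, at r = 0.62 (0.73 after removing group means), about as with Car3 at 0.64 (0.60). With Cdh5, r was lower for the other tested members: Cidec 0.36, Lep 0.33, Car3 0.30, Plin1 0.20, Pnpla2 0.03 and Lipe -0.07. The gene outside the set most like Adipoq was Ptprb, an endothelial phosphatase, at 0.75. Among its 5 nearest were also Sncg (0.69), from the further list of adipocyte genes below, and Dgat2 (0.68), from the shared lipid genes below. The part of endothelial RNA in the results was not tested.

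The 4 mesothelial markers summed to 1.39 to 18.5 CPM per library and the 5 lymphocyte markers to 0.802 to 6.18 CPM. Haemoglobin transcripts (4 genes) reached 6.24 CPM, and the 4 markers of epididymal epithelium, the neighbouring tissue, reached 2.06 CPM, with Lcn8 at 0 in all 4 groups.

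**Figure D4:**
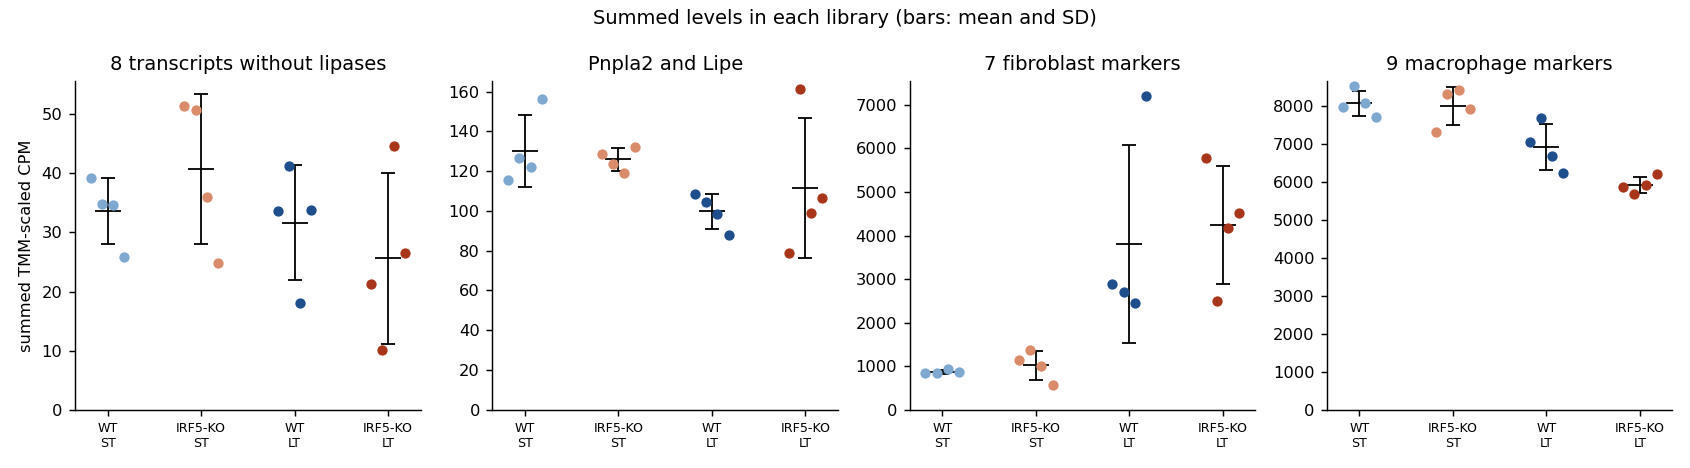
Summed TMM-scaled CPM per library of the 8 adipocyte transcripts without the lipases, of Pnpla2 and Lipe, of 7 fibroblast markers and of 9 macrophage markers, each axis with its own scale from 0, points for replicates 1 to 4 and bars for the mean and SD. Fibroblast markers are higher in every LT-HFD library (2453 to 7214 CPM) than in any ST-HFD library (565 to 1367 CPM), while the 8 adipocyte transcripts overlap.

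The library labelled IRF5-KO replicate 2 on LT-HFD stood apart. It held the lowest sum of the 8 transcripts, 37 counts or 10.0 CPM, where the other libraries held 18.1 to 51.3 CPM. At the same time its lipases summed to 161 CPM, the highest of all. Of this, 146 CPM was Pnpla2, while Lipe, at 15.2 CPM, was below its mean over the 16 libraries (18.9 CPM). Without this library and WT LT-HFD replicate 2, which had the fewest counts, the adjusted p of Cidec in IRF5-KO was 0.124 and that of Pnpla2 in WT was 0.0478.

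Some of the transcripts followed each other from library to library. As a description over 16 libraries, which share depth and group differences between the values compared, Pearson's r of log2 CPM was 0.72 between Lep and Cidec, 0.68 between Cidec and Car3, 0.64 between Adipoq and Car3 and 0.58 between Lep and Car3. Against the mean of the other tested members r was 0.79 for Cidec, 0.61 for Lep, 0.60 for Car3 and 0.55 for Adipoq. It was 0.35 for Lipe, 0.18 for Plin1 and -0.22 for Pnpla2.

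Pnpla2 ran instead with the droplet gene Plin2, perilipin 2, the droplet coat of cells other than fat cells (r = 0.67 over 16 libraries, 0.77 after removing group means), and against Scd1, a desaturase that makes monounsaturated fatty acids (-0.61 and -0.68). Genes outside the lists used here came nearer to Pnpla2 than Plin2 did, with Ubqln1 and Rab14 at 0.85 and Hspa8 at 0.84. The other lipase, Lipe, ran against Plin2 (-0.51 and -0.50). Pnpla2 also ran against the fibroblast genes Dcn, decorin (-0.66 and -0.72), and Col3a1, a collagen (-0.63 and -0.58), whose part was not tested. Car3 ran with Scd1 at 0.82 (0.84 after removing group means), and Lep and Cidec at 0.68 and 0.61. The 10 genes outside the set whose log2 CPM was most like the mean of the 7 tested members were Clasrp (r = 0.867), Egln1, Rasgrf2, Cntrob, Parp10, Csnk1e, Zc3h11a, 4932438A13Rik, Agbl5 and Lemd3 (r = 0.797), none of which is in the other adipocyte lists used here.

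A further list of 20 genes known from adipocytes was mostly as low. Of the 20, 8 passed the filter in the fit of 16 libraries. With duration in WT, 1 was called higher and 1 lower, so 2 of 8 where 25.3% of all genes were called: Itih5, an extracellular protein that binds hyaluronan, had a log2 fold change of 1.99 (adjusted p = 8.3e-04) and Pde3b, the phosphodiesterase through which insulin restrains lipolysis, of -0.48 (adjusted p = 0.0176). In IRF5-KO 5 of 8 were called, where 32.8% of all genes were, and 3 of them rose, Itih5 (2.17), Mrap (1.55), an accessory protein of melanocortin receptors, and Trarg1 (1.18), a regulator of the glucose transporter Slc2a4. Pde3b (-0.43) and Gpd1 (-0.78), which makes glycerol 3-phosphate, fell. DESeq2, which fitted all 20, called the same 2 genes in WT (14.2% of all genes it fitted) and 3 in IRF5-KO (17.9%), so the list did not exceed that share. The 3 were among these 5, without Mrap (DESeq2 adjusted p = 0.0503) or Gpd1 (DESeq2 adjusted p = 0.0580). The medians over the 8 were 0.10 in WT and -0.17 in IRF5-KO. Cidea was at 0 in 3 of the 4 groups.

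Lipid genes that macrophages and adipocytes share summed to 3050.3 to 8522 CPM over 24 genes per library. The fatty acid transporter Cd36, lipoprotein lipase (Lpl) and Plin2 made up 63.1% to 80.1% of that sum, and in mean CPM per kilobase 18 of the 24 lay below Pnpla2 and 5 below Lep. All 24 of 24 were tested with duration. In WT 4 were called higher, G0s2 (3.47), the inhibitor of Pnpla2, Cavin1 (1.41) and Cav1 (1.04), which form caveolae, and the desaturase Scd2 (0.86). There 2 were called lower, Fasn (-0.56), fatty acid synthase, and Lpin1 (-0.54), a phosphatidate phosphatase. In IRF5-KO 4 were called higher, G0s2 (3.98), Fabp4 (1.35), a fatty acid carrier, Cavin1 (1.23) and Plin3 (0.40), a droplet coat protein, and Fasn (-0.69) was called lower. These calls were made in comparisons where 25.3% and 32.8% of all genes were called. Fibroblast markers were higher in the same LT-HFD libraries, and which cells held the transcripts of this list was not tested. Between genotypes, 0 genes of either list had an adjusted p under 0.05 at either duration, in edgeR or DESeq2. At an unadjusted p under 0.05 both tools found 0 on ST-HFD. On LT-HFD edgeR found 1 of the 24 lipid genes, Fabp4 (edgeR unadjusted p = 0.0107, adjusted p = 0.853), and 0 of 5 tested in the other list, where 5.72% of all genes were under 0.05. DESeq2 found 3 of 24, Fabp4, Plin2 and Cd36, and 0 of 19 fitted, where 3.18% of all genes were.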

How the data were processed

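RNA of F4/80+ ATMs (10 ng of total RNA, stranded and ribosome-depleted libraries, 12 PCR cycles) was sequenced in 16 libraries. Per the labels and the methods of the study, the authors trimmed with fastp 0.19.11, aligned to mm10 with STAR 2.7.3a and deposited raw read counts per gene, without normalization. The annotation release and the strand setting are not given in the sources used here. Counts run from 3279332 to 4958131 per library, and their intervals cover counting error only, as PCR copies are not separate molecules.

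The 10 genes and all lists were chosen with earlier results of these data known. Counts were filtered by filterByExpr, TMM-normalized and tested by edgeR 4.0.16's quasi-likelihood test in R 4.3.3 with Benjamini-Hochberg adjustment over all genes tested, calling an adjusted p under 0.05. Genotypes were compared within each duration (8 libraries each), and durations and the interaction over all 16. Standard errors are the absolute log2 fold change over the root of F. CPM values use 1 set of TMM factors over the 16 libraries, divided for levels between genes by merged GENCODE M21 exon length (GRCm38, 32620 of 37310 identifiers matched). Correlations used log2 CPM with a prior count of 2. Named beyond the 10 genes were list genes with an adjusted p under 0.05 (at most 5 per comparison and direction), the 10 genes most correlated with the mean of the tested members, and cell markers beside a result. The exceptions were the olfactory receptor genes, Plin2, Scd1, Cd36, Lpl, Ptprb, Sncg, Dgat2, Ubqln1, Rab14, Hspa8 and Cidea, which were picked after their values were seen. The test was also run on simulated counts, whose outcome is not given here. No 2 libraries of a group were duplicates.

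The labels number replicates 1 to 4 in each group without saying what a number shares. Same-numbered libraries deviated together between genotypes on ST-HFD (r = 0.382, 0.492, 0.182 and 0.299 across genes averaging 20 or more counts, though differently numbered ones reached 0.480). They were taken as pairs there only, and the main genotype test used no block, so pairing entered the fits only as an alternative. Alternatives were DESeq2 1.42.0, RLE factors, TMM without the 3 most counted features, no filter, a replicate block, other sets of libraries in the fit and leaving out each library. Leaving out the second LT-HFD replicates of both genotypes together was chosen after seeing the data. Reads per exon were not analysed here.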

Additional observations from a re-analysis of the deposited data

Results flagged for a closer look

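Of 48 sets of 4 libraries checked for a library far from its group, 3 were found, and chance gives about 1 in 20. Retn in IRF5-KO LT-HFD replicate 4 was at 0.927 CPM, from 3 counts, where the other 3 libraries of the group were at 0. As those 3 were tied, any count above 0 would have been flagged, so this case carries no weight. Plin1 in IRF5-KO ST-HFD replicate 1 was at 5.61 CPM, with the others between 2.31 and 2.83 CPM. Pnpla2 in WT ST-HFD replicate 4 was at 136 CPM, with the others between 96.8 and 102 CPM, and without that library the log2 fold change of Pnpla2 between genotypes on ST-HFD was 0.08 in place of -0.06, with neither called.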

How the results depend on the processing

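Counting depth limits what these tests could show for Retn, Cfd, Pck1 and, on each duration alone, Adipoq, which did not pass the filter. RLE factors and TMM without the 3 most counted features changed no direction and no call among the 10 genes. Among all genes, the count with duration went from 2928 to 2931 and 2923 in WT and from 3787 to 3777 and 3780 in IRF5-KO. Among all genes, the genotype count on ST-HFD was 2 in place of 1 under DESeq2, without the filter, with the replicate block and in the fit over 16 libraries. On LT-HFD it was 6 in place of 2 under DESeq2 and without the filter, 0 with the block and 0 to 2 with a library left out.

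With duration in IRF5-KO, the count of members called was 1 and became 0 in the fit of 8 libraries, 0 without both second LT-HFD replicates, and 0 to 2 with a library left out. In WT it was 0 to 1 with a library left out, and 1 without both second LT-HFD replicates, where Car3 stood at -0.07 in place of 0.06. The cause of these shifts was not tested.

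With the replicate block, the members called in IRF5-KO were 0 in place of 1, with Cidec at -1.03 on the log2 scale (adjusted p = 0.0781), and no other call on the members changed. Outside ST-HFD the numbers were not taken as pairs: 1 of 8 libraries correlated best with its own number between genotypes on LT-HFD, 2 of 8 between durations in WT and 0 of 8 in IRF5-KO. On ST-HFD it was 5 of 8.

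Directions that turned with a library left out were, between genotypes on ST-HFD, those of Plin1 (-0.42 to 0.25), Pnpla2 (-0.12 to 0.080), Lipe (-0.21 to 0.16) and Car3 (-0.11 to 0.39), and on LT-HFD those of Plin1 (-0.19 to 1.18), Cidec (-0.46 to 0.021) and Pnpla2 (-0.042 to 0.38). With duration they were Car3 in WT (-0.19 to 0.31) and Plin1 (-0.56 to 0.62) and Pnpla2 (-0.39 to 0.015, and -0.41 without both second LT-HFD replicates) in IRF5-KO, and in the interaction Plin1 (-0.15 to 1.23). None of these was called. The mean summed level of the 10 genes was 164, 167, 131 and 137 CPM for WT and IRF5-KO on ST-HFD and then on LT-HFD. Without Pnpla2 it was 55.3, 61.9, 49.7 and 40.5 CPM, and without both lipases 33.6, 40.7, 31.7 and 25.6 CPM.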
